A study of Mus musculus with 6 samples.

Results

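The enzymes that set and remove DNA methylation were examined in pre-B cells in which miR-26 was raised or sequestered. The genes were Tet1, Tet2, Tet3, Tdg, Dnmt1, Dnmt3a and Dnmt3b, and every probe that the array design names for 1 of them was taken by that name and described separately. This gave 17 of the 55681 different non-control probes on the array, for 7 of its 24105 gene names. All 6 samples were RNA of the mouse pre-B cell line 1676, a single line of the genotype SLP-65-/- LAT-/- that lacks these adaptor proteins of pre-B cell receptor signalling, kept in an excess of the growth factor IL-7. The cells carried a control vector, a vector for hsa-miR-26a-2 (called miR-26a here) or a vector for a sponge transcript that sequesters the miR-26 family, and in each group cells that took up the retrovirus had been selected with puromycin. Each group had 2 arrays, 1 from each of 2 experiments with separately made transduced cells. None of the arrays was of a scrambled sponge, and the titles of the control samples also carry identifiers of other samples, so that these arrays may come from an earlier series.

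Cytosine methylation is kept through cell division by DNMT1, which copies the pattern of the old strand to the new one, while DNMT3A and DNMT3B methylate sites that were unmethylated before. TET1, TET2 and TET3 oxidise methylcytosine stepwise with 2-oxoglutarate as cosubstrate, and the DNA glycosylase TDG cuts out the more oxidised forms, after which base excision repair puts back an unmethylated cytosine. In developing B cells, TET2 and TET3 are known to be needed for demethylation and rearrangement at the immunoglobulin kappa locus, and in pancreatic cells miR-26 is known to bind the untranslated ends of TET and TDG transcripts.

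A microRNA of this family pairs with its targets mainly through bases 2 to 8, the seed, and the sequences are shown because the cells were made to express or to sequester this seed. Both mature mouse sequences were found in RefSeq (GRCm38.p6), written 5′ to 3′ with the seed in capitals. The mouse miR-26a sequence is encoded on chromosomes 9 and 10 and that of miR-26b on chromosome 1.
mmu-miR-26a-5p: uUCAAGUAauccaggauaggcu
mmu-miR-26b-5p: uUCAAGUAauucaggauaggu
The sequences share the seed and differ at 2 of the 21 bases that both have. The DNA word that pairs with the whole seed and has an A after it is TACTTGAA, which 0.174% of all 55681 probes hold on the strand printed on the array. The other words searched lie within it. Without the closing A it is TACTTGA, held by 0.431% of the probes. A match to bases 2 to 7 of the microRNA followed by an A is ACTTGAA, held by 0.700%, and the match to those bases alone, the shortest word searched, is ACTTGA, held by 1.96%. Of the 17 member probes, each 60 bases long, 0 hold any of these words, and 0 hold a reverse complement of them. The search covered the probes alone, and the other bases of these transcripts were not analysed here. The array design names 0 probes for a miR-26 gene, so the level of the microRNA itself was not measured.

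The label pre-B cell was set against markers of cell types. All 9 pre-B cell markers, among them Cd79a, Cd79b, Vpreb1, Igll1, Pax5, Ebf1, Il7r and Dntt, were well above background on every array, with a processed signal of at least 396. Of the 5 markers each of red cell precursors and of fibroblasts, 0 passed the filter on signal, and their highest processed signals were 27.8 and 25.8. Among them, Klf1 and Col1a2 were still well above background on all 6 arrays, and Hba-a1 was on 5. Among 5 T cell markers, Cd3e and Cd4 had signal on all 6 arrays while Cd3g, Cd3d and Cd8a had a processed signal of at most 16.7. Among 5 myeloid markers, Csf1r, Itgam and Elane passed the filter and Lyz2 and Mpo did not. The summed processed signal of the T cell markers that passed was 1399 and 1320 in control, 1259 and 1360 in miR-26a and 1027 and 1280 in sponge cells, and that of the myeloid markers was 3566 and 4316, 3721 and 4297, and 2990 and 4671, most of it from Itgam. The brightest Csf1r probe had log2 signals of 8.17 and 7.94 in control, 8.20 and 7.85 in miR-26a and 7.21 and 7.54 in sponge cells. Both sponge arrays were the lowest, by -0.69 from control (adjusted p = 0.223), and miR-26a and sponge differed by 0.65 (adjusted p = 0.0526). In log2 signal both sponge arrays were also the lowest for Cd4, by -0.32 from control (adjusted p = 0.223), and for Cd3e, by -0.29 (adjusted p = 0.293). A dimmer Itgam probe passed the test described below between miR-26a and control. The part of other cell types in the results was not tested. Dntt, the polymerase that adds bases at V(D)J junctions, was the 1 of the 9 pre-B cell markers whose brightest probe passed the test described next. The Dntt log2 signals were 12.88 and 12.76 in control, 11.62 and 11.79 in miR-26a and 12.91 and 12.87 in sponge cells. Both miR-26a arrays lay below the other 4, by -1.12 (standard error 0.090, adjusted p = 0.00538) against control. A dimmer probe of Pax5 passed the test between miR-26a and sponge.

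Each array holds 59305 spots, of which 28823 to 29800 were well above background and 0 were saturated. The authors deposited the background-subtracted processed signal of each spot, and log2 values below are this intensity after quantile normalization. The test took in a probe if it was flagged as well above background on 1 or more arrays and its processed signal exceeded 50 on 4 or more of the 6, which left 20168 probes. Of the member probes, 11 of 17 met this, for 6 of the 7 genes, and all 11 were above 50 on all 6 arrays. The number of arrays limits the precision. Each p-value sets a difference against the spread between these 6 arrays, with the replicate number taken out, and does not cover other cell lines. A standard error of a member probe had a median of 0.0888 on the log2 scale, beside 0.0791 over all tested probes. Since RNA of whole cultures was measured, fewer cells with a transcript and less transcript per cell cannot be told apart.

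The miR-26a and control arrays were compared to see which transcripts change when the microRNA is raised. Of the 11 member probes, 0 were called, meaning that the p-value from limma, adjusted over all tested probes by the Benjamini-Hochberg method, was under 0.05, whereas 9.72% of all tested probes were called. At an unadjusted p under 0.05 the count was 1 of 11, for Dnmt3a, beside 27.3% of all probes. The log2 difference was below 0 for 10 of the 11 member probes, beside 9428 of the 20168 tested probes. It was so for 9 members with scaling to the 75th percentile or normexp background correction, where a Dnmt3b probe was at 0.02 and 0.0092, for 9 without either control array and for 8 without either miR-26a array. The median difference of the members was -0.12 beside 0.01 over all tested probes. Both miR-26a arrays lay below both control arrays for 3 member probes (Tet3, Dnmt1 and Dnmt3a), against 22.6% of all probes, and above them for 0, against 26.9%. The count of all calls, 1960, went down to 220 and 260 when control replicate 1 or 2 was left out, to 1047 without either sponge array and to 1230 without miR-26a replicate 2. Without the replicate number as a block it was 312, and the member count stayed at 0 there.

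The miR-26a and sponge arrays were compared as the groups with the most and the least free miR-26 by design. The control arrays entered this comparison only through the normalization, the filter and the spread and replicate effect of the fit. Again 0 of the 11 member probes were called, where 16.8% of all tested probes were (3382 probes). At an unadjusted p under 0.05 there were 5 of 11, beside 34.4% of all probes: Tet2, Dnmt3a, 1 Dnmt3b probe and 2 Tdg probes, of which 1 Tdg probe was higher with miR-26a and the other 4 probes were lower. This count of 5 was 3 without either control array, without miR-26a replicate 2, without sponge replicate 2, with normexp or with array weights. It was 2 without the block, 1 without miR-26a replicate 1 or sponge replicate 1, and 0 with all 55681 probes in the fit. The median difference of the members was -0.19 beside 0.02 over all probes, and 9 of the 11 were below 0, or 8 without sponge replicate 1, beside 9401 of the 20168 tested probes. Both miR-26a arrays lay below both sponge arrays for 4 member probes (Tet2, Tdg, Dnmt1 and Dnmt3a), against 23.1% of all probes, and above them for 0, against 27.9%. Leaving out sponge replicate 1 or 2 lowered all calls to 350 and 367, leaving out either control array to 2203, and dropping the block to 990.

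Sponge and control were compared to see which transcripts change when the family is sequestered. Among the members 0 of 11 were called, beside 0.00992% of all tested probes (2 probes), and 0 had an unadjusted p under 0.05, beside 16% of all probes. The count of 0 at an unadjusted p did not hold in every fit that left out a single array. The median difference of the members was 0.01, the same to that decimal as over all probes. Both sponge arrays lay below both control arrays for 1 member probe (Dnmt1, under quantile normalization), against 20% of all probes, and above them for 1 (Tet2), against 17.9%. This comparison shares the control arrays with that of miR-26a and control. The 2 calls in all probes became 0 without control replicate 2 or either sponge array, 5 without control replicate 1 and 33 without either miR-26a array.

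**Figure D1:**
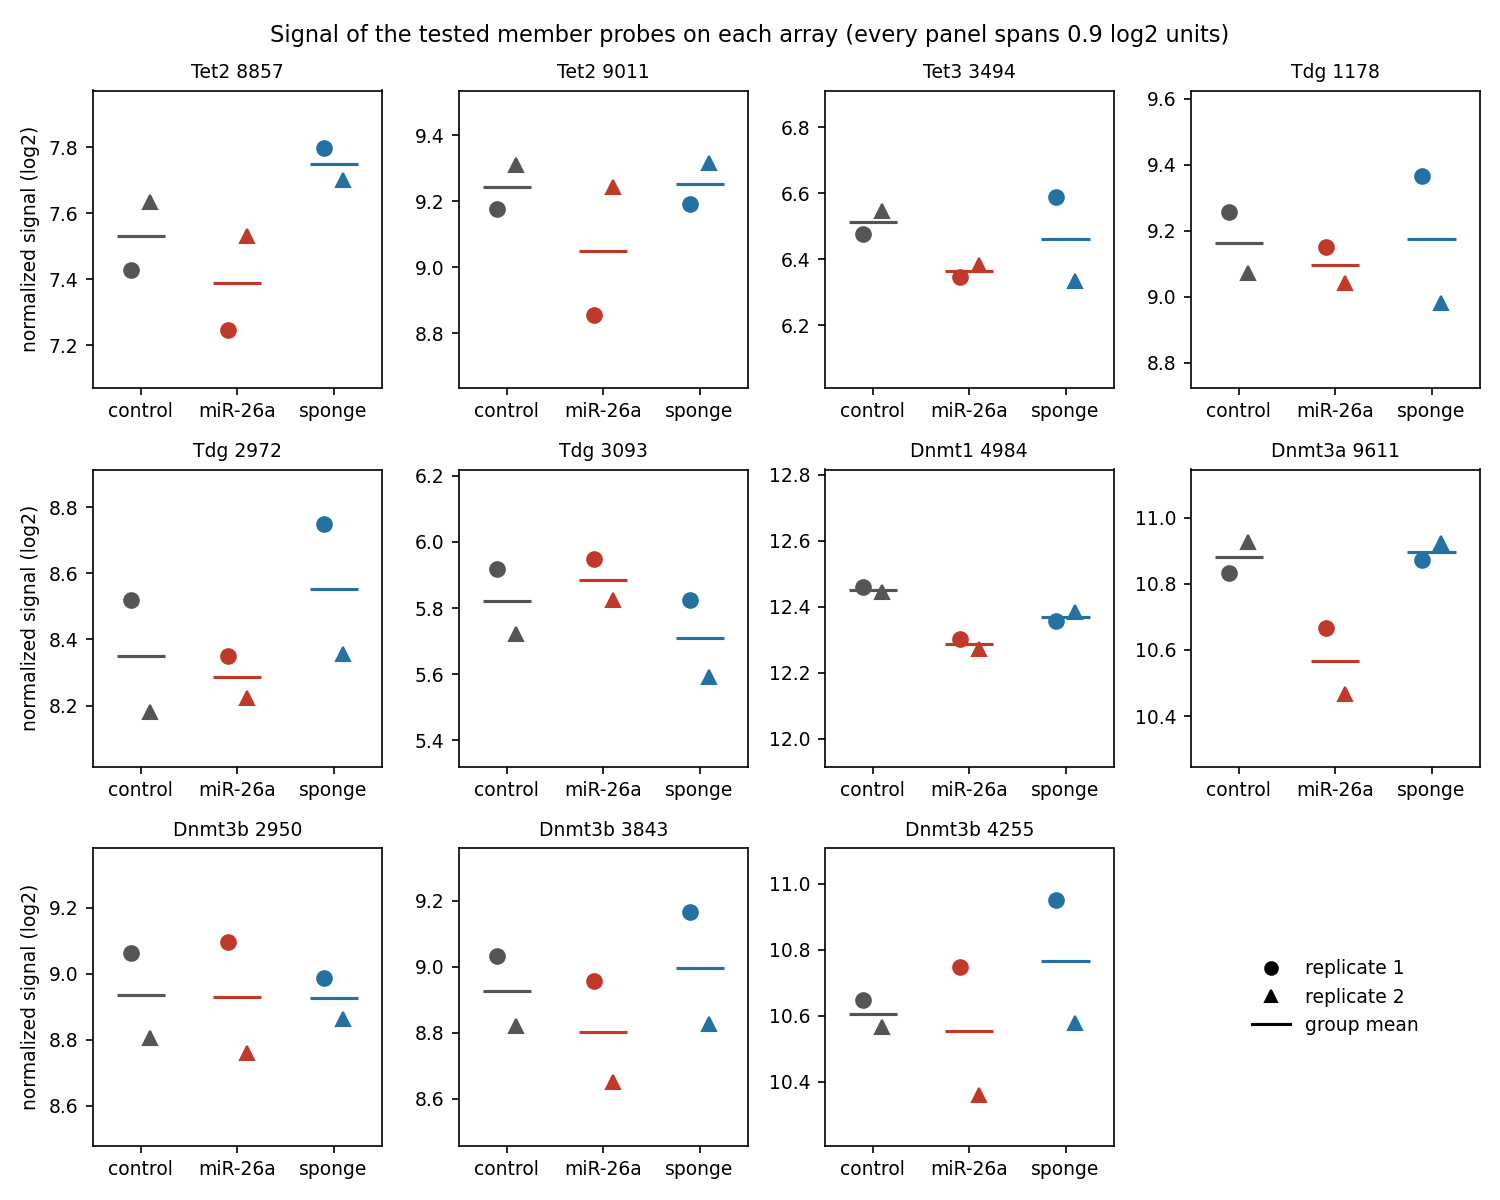
Normalized log2 signal (vertical axis, 0.9 units in every panel) of the 11 tested member probes in control, miR-26a and sponge cells. Circles are replicate 1, triangles replicate 2 and lines group means, and each panel is named by gene and position in the transcript. For Dnmt3a both miR-26a arrays (10.67 and 10.47) lie below the other 4 arrays.

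Of the TET genes, which oxidise methylcytosine, Tet1 had no probe in the test. Its probes at positions 3128 and 6892 of the transcript were not well above background on any array. The Tet1 probe at position 5298 (chr10:62276042-62276101, mm9) was well above background on all 6 arrays with a processed signal of at most 41.4. Its log2 signals were 5.24 and 4.72 in control, 5.03 and 5.15 in miR-26a and 5.49 and 5.22 in sponge cells. The miR-26a arrays lay between the control arrays and below both sponge arrays, and control overlapped with both other groups.

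Tet2 had 3 probes, and the one at position 668, designed on a cDNA clone, was too dim for the test, with log2 signals of 4.38 to 5.11. The Tet2 probe at position 8857 (chr3:133126905-133126964, mm9) had log2 signals of 7.43 and 7.63 in control, 7.24 and 7.53 in miR-26a and 7.80 and 7.70 in sponge cells. Both sponge arrays were the highest, and the miR-26a and control arrays overlapped. The miR-26a cells differed from sponge cells by -0.36 (95% interval -0.63 to -0.10, adjusted p = 0.0748), with -0.55 between the replicate 1 arrays and -0.17 between the replicate 2 arrays. Against control the difference was -0.14 with miR-26a (adjusted p = 0.454) and 0.22 with the sponge (interval -0.05 to 0.49, adjusted p = 0.379). Leaving out single arrays gave -0.26 to -0.03 with miR-26a and 0.05 to 0.39 with the sponge.

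The neighbouring Tet2 probe at position 9011 (chr3:133126751-133126810, mm9) gave 9.18 and 9.31 in control, 8.86 and 9.24 in miR-26a and 9.19 and 9.31 in sponge cells. Here the replicate 1 array of miR-26a was the lowest, and the other miR-26a array lay among the control and sponge arrays. The differences were -0.19 from control (interval -0.42 to 0.03, adjusted p = 0.245) and -0.20 from sponge (adjusted p = 0.180), and sponge and control differed by 0.0096 (adjusted p = 0.967). For both Tet2 probes the difference between miR-26a and control was larger in size in the replicate 1 arrays, at -0.18 and -0.32, than in the replicate 2 arrays, at -0.11 and -0.07. None of the Tet2 differences passed the threshold in any of the 13 alternative settings.

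Tet3 had 1 probe of 3 in the test, at position 3494 (chr6:83319720-83319779, mm9). Its log2 signals were 6.48 and 6.55 in control, 6.35 and 6.38 in miR-26a and 6.59 and 6.33 in sponge cells. Control lay above miR-26a without overlap, while the sponge arrays included the highest and the lowest of the 6. The difference between miR-26a and control was -0.15 (interval -0.40 to 0.10, adjusted p = 0.413). Of the Tet3 probes that were too dim for the test, the one at position 2202 had log2 signals of 5.38 and 5.33 in control, 5.39 and 5.29 in miR-26a and 5.20 and 5.20 in sponge cells, and the one at 4483 lay between 4.25 and 4.78. Both were well above background on all 6 arrays.

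TDG, the glycosylase that removes oxidised methylcytosine, was measured by 3 probes, all tested. At position 1178 (chr10:82110701-82110760, mm9) the Tdg log2 signals were 9.26 and 9.07 in control, 9.15 and 9.04 in miR-26a and 9.37 and 8.98 in sponge cells. At position 2972 (chr10:82112994-82113053, mm9) they were 8.52 and 8.18, 8.35 and 8.22, and 8.75 and 8.36 in the same order. At position 3093 (chr10:82113115-82113174, mm9) they were 5.92 and 5.72, 5.95 and 5.82, and 5.82 and 5.59. In all 9 pairs of replicate values the replicate 1 array was the higher, and miR-26a and control overlapped at all 3 positions.

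The Tdg probes did not share 1 direction. Between miR-26a and control the differences were -0.07, -0.06 and 0.07 at positions 1178, 2972 and 3093, with adjusted p-values of 0.682, 0.713 and 0.606. Between miR-26a and sponge they were -0.08 (adjusted p = 0.572), -0.27 (interval -0.49 to -0.05, adjusted p = 0.0946) and 0.18 (interval 0.01 to 0.35, adjusted p = 0.137). The probes at 2972 and 3093, which lie next to each other on the chromosome, thus had opposite signs. They also did so between sponge and control, at 0.20 (adjusted p = 0.333) and -0.11 (adjusted p = 0.464). The signal of the probe at 3093 was close to the filter, with processed signals of 51.9 to 61.0, and the difference between the probes was not tested. With normexp background correction the differences at 3093 were 0.073 between miR-26a and sponge, 0.019 between miR-26a and control and -0.055 between sponge and control. Leaving out single arrays gave -0.39 to -0.15 at 2972 between miR-26a and sponge.

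DNMT1, the maintenance methyltransferase, had 1 probe, at position 4984. Its bases span 369 positions of the genome (chr9:20711973-20712341, mm9), more than the 60 bases of the probe, so that its match to the genome is interrupted. The Dnmt1 log2 signals were 12.46 and 12.44 in control, 12.30 and 12.27 in miR-26a and 12.36 and 12.38 in sponge cells. In these values the 3 groups did not overlap, with control highest and miR-26a lowest. The place of the sponge arrays depended on the scaling, since the processed signals of control (5771 and 5190) and sponge cells (5505 and 5719) overlapped, and with scaling to the 75th percentile sponge and control differed by -0.0076. The means were 12.45 ± 0.01 in control, 12.29 ± 0.02 in miR-26a and 12.37 ± 0.02 in sponge cells (SD, n = 2 arrays each). Against control, the difference was -0.16 with miR-26a (interval -0.33 to 0.0021, adjusted p = 0.188 from limma) and -0.08 with the sponge (adjusted p = 0.574).

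DNMT3A, which methylates new sites, had 1 probe at position 9611 (chr12:3914320-3914379, mm9). The Dnmt3a log2 signals were 10.83 and 10.93 in control, 10.67 and 10.47 in miR-26a and 10.87 and 10.92 in sponge cells. Both miR-26a arrays lay below the other 4, while control and sponge overlapped. Such a pattern, with both miR-26a arrays below the other 4, was found for 2 of the 11 member probes, Dnmt1 and Dnmt3a, and for 15.1% of all tested probes. The Dnmt3a difference from control was the largest in size among the members in that comparison, -0.31 (standard error 0.094, interval -0.55 to -0.08, adjusted p = 0.0996 from limma), which is -19.5% on the linear scale. In the replicate 1 arrays it was -0.17 and in the replicate 2 arrays -0.46. From sponge it was -0.33 (interval -0.56 to -0.10, adjusted p = 0.0673), and sponge and control differed by 0.02 (interval -0.22 to 0.25, adjusted p = 0.939).

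Dnmt3a was the only member that passed the threshold in any alternative setting. Without miR-26a replicate 1 the difference was -0.45 from control (adjusted p = 0.0477) and -0.47 from sponge (adjusted p = 0.0344), and without replicate 2 of miR-26a it was -0.18 (adjusted p = 0.387) and -0.20 (adjusted p = 0.267). With normexp background correction it was -0.32 from both, with adjusted p-values of 0.0512 from control and 0.0394 from sponge. Over the 13 alternatives the adjusted p ranged from 0.0477 to 0.468 against control and from 0.0344 to 0.367 against sponge.

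DNMT3B, the other enzyme for new sites, was measured by 3 tested probes. At position 2950 (chr2:153512098-153512157, mm9) the Dnmt3b log2 signals were 9.06 and 8.80 in control, 9.10 and 8.76 in miR-26a and 8.99 and 8.86 in sponge cells. At position 3843 (chr2:153512991-153513050, mm9) they were 9.03 and 8.82, 8.96 and 8.65, and 9.17 and 8.83. At position 4255 (chr2:153513403-153513462, mm9) they were 10.65 and 10.56, 10.75 and 10.36, and 10.95 and 10.58. The groups overlapped at all 3 positions, and the replicate 1 array was again the higher in all 9 pairs. Between miR-26a and control the differences were -0.0049, -0.12 and -0.05 (adjusted p = 0.981, 0.330 and 0.792). Between miR-26a and sponge they were 0.0042, -0.19 and -0.21 (adjusted p = 0.979, 0.121 and 0.190), of which that at 3843 had an unadjusted p of 0.0372. The difference at 3843 between miR-26a and control was -0.047 with normexp background correction.

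**Figure D2:**
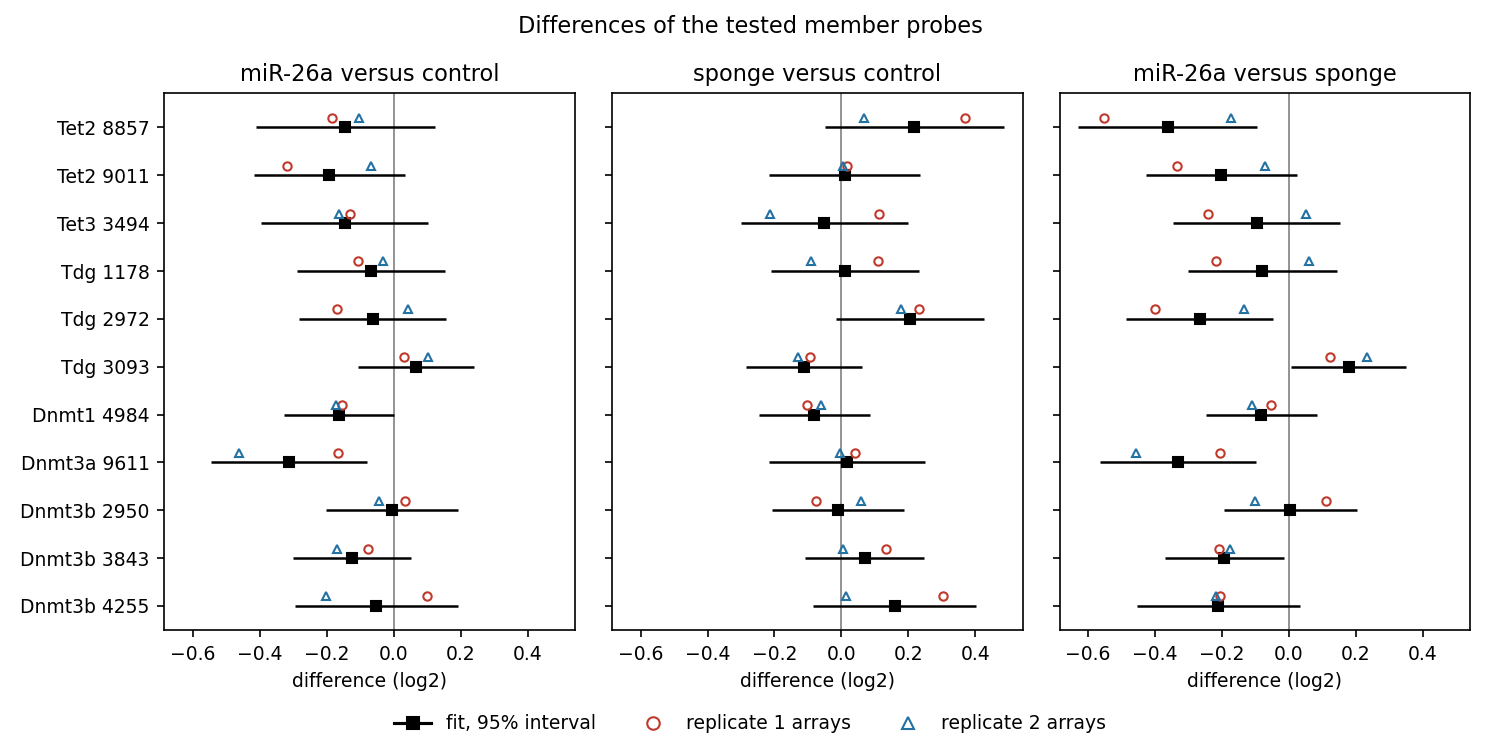
Log2 differences (horizontal axis) of the 11 tested member probes in the 3 comparisons, with squares for the fitted value, bars for its 95% interval, circles for the replicate 1 arrays and triangles for the replicate 2 arrays. Most intervals span 0, and that of Dnmt3a between miR-26a and control runs from -0.55 to -0.08.

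The replicate number went with a difference of similar size to those between groups. For 6 of the 11 member probes, the 3 of Tdg and the 3 of Dnmt3b, replicate 1 was above replicate 2 in all 3 groups, against 26.7% of all tested probes. The fitted difference between the replicates, looked at after these values were seen, was 0.23, 0.29 and 0.18 for Tdg at positions 1178, 2972 and 3093. For Dnmt3b it was 0.24, 0.28 and 0.28 at positions 2950, 3843 and 4255. Of the 11 member probes 0 were called for it, with the lowest adjusted p of 0.0616 for Dnmt3b at position 3843, beside 3.35% of all tested probes. The Tet2 probe at 9011 went the other way in all 3 groups, with a difference of -0.22 (adjusted p = 0.141). Replicate 1 arrays lay in 1 row of the slide and replicate 2 arrays in the other, so that experiment and place on the slide cannot be told apart. The groups were compared within replicate numbers, so a shift common to the 3 groups is taken out of their comparison.

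**Figure D3:**
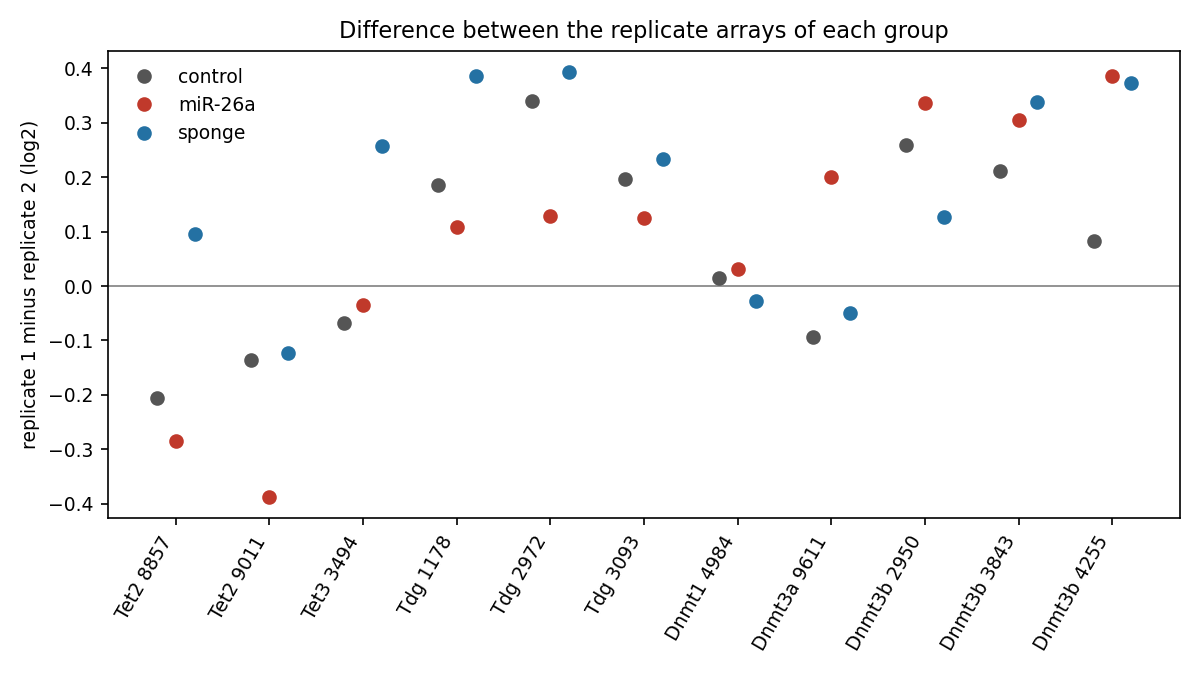
Replicate 1 minus replicate 2 (vertical axis, log2) for the 11 tested member probes, 1 point for each group. All points of Tdg and Dnmt3b lie above 0, and those of Dnmt1 lie close to it.

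Other genes of DNA methylation and its removal were taken from 5 lists, each gene by its brightest tested probe. The shares beside their counts are over all tested probes, not over the brightest probe of each gene. Whether this choice of probe changes the share called was not tested. With miR-26a against control, 6 of the 65 genes tested were lower and 6 higher at an adjusted p under 0.05, beside 5.12% and 4.6% of all probes, and 53 were not called. The median difference of the 65 genes was 0.05. Between miR-26a and sponge 8 were lower and 12 higher, beside 8.55% and 8.22% of all probes, and their median was 0.10. Between sponge and control 0 of the 65 were called, beside 0.00992% of all probes. An unadjusted p under 0.05 was found for 8 of the 65, beside 16% of all probes. The shares of all probes given here also stand beside the counts of each list below. Of the 12 calls against control, 1 was also called after leaving out either control array, 5 after leaving out either sponge array, 6 after leaving out either miR-26a array and 1 without the block, and all 12 differences kept their sign throughout. Of the 20 calls against sponge, 13 were also called without either control array, 10 and 11 without miR-26a replicate 1 or 2, 0 without either sponge array and 5 without the block. With normexp 11 of the 12 and 19 of the 20 were called, and with scaling to the 75th percentile 11 and 17. With array weights 12 and 16 were called, and with all 55681 probes in the fit 0 in either comparison.

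Among the base excision repair genes, which include other glycosylases as well as enzymes of later steps, 3 of 17 were lower with miR-26a than in control and 1 was higher, with a median difference of 0.03. Neil1, a glycosylase for oxidised bases, had log2 signals of 11.99 and 12.18 in control, 11.17 and 11.50 in miR-26a and 11.60 and 11.98 in sponge cells. Both miR-26a arrays were the lowest of the 6. Neil1 fell by 0.75 against control (adjusted p = 0.00824) and by 0.46 against sponge (adjusted p = 0.0184), and sponge and control differed by -0.29 (adjusted p = 0.230). Mbd4, a glycosylase that like TDG removes thymine paired with guanine, had log2 signals of 10.13 and 10.28 in miR-26a cells and of 10.51 to 10.88 on the other 4 arrays. Its miR-26a arrays were thus again the lowest, with differences of -0.42 (adjusted p = 0.0398) and -0.49 (adjusted p = 0.0191). Smug1, a glycosylase for uracil and hydroxymethyluracil, rose with miR-26a by 0.37 against control (adjusted p = 0.0344) and 0.47 against sponge (adjusted p = 0.0135). Against sponge, 4 of the 17 were lower and 2 higher, with Ogg1 at -0.39 (adjusted p = 0.0257) and the endonuclease Apex1 at 0.37 (adjusted p = 0.0212) besides these. Neil3 differed by -0.21 between sponge and control (adjusted p = 0.257).

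Of the readers and maintenance factors of DNA methylation, 1 of 17 was lower and 2 were higher with miR-26a than in control, and the median was 0.04. Mbd5, of the methyl-CpG-binding domain family, had log2 signals of 9.55 and 9.59 in control, 8.89 and 9.13 in miR-26a and 9.75 and 9.83 in sponge cells, without overlap of the 3 groups. By this brightest probe, Mbd5 fell by 0.55 against control (adjusted p = 0.0173) and by 0.77 against sponge (adjusted p = 0.00539). Sponge and control differed by 0.22 (adjusted p = 0.285). The other tested Mbd5 probe was called against sponge but not against control. Without the block the brightest Mbd5 probe was not called against control (adjusted p = 0.0741 from limma). Zbtb4, a zinc finger protein that binds methylated DNA, had 7.29 and 7.30 in control, 7.92 and 8.18 in miR-26a and 7.17 and 7.29 in sponge cells. The miR-26a arrays were the highest, by 0.76 against control (adjusted p = 0.00913) and 0.82 against sponge (adjusted p = 0.00512). The related Zbtb38 rose by 0.40 (adjusted p = 0.0347) and 0.31 (adjusted p = 0.0494). Zbtb38 was called in 4 and 2 of the 13 alternatives, and with normexp, where it was not called, Zbtb38 differed by 0.25 between miR-26a and control and by 0.22 between miR-26a and sponge. Against sponge 1 was lower and 3 were higher, among them Cxxc5, a CXXC domain protein, at 0.47 (adjusted p = 0.0130), which differed by -0.27 between sponge and control (adjusted p = 0.224). Uhrf1, which brings DNMT1 to newly copied DNA, differed by 0.0025 between miR-26a and control (adjusted p = 0.988).

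Of 14 tested genes for cofactors and partners of the TET enzymes, 1 was lower and 1 higher with miR-26a than in control, and the median was 0.09. Idh1, which makes the TET cosubstrate 2-oxoglutarate in the cytosol, had log2 signals of 7.34 and 7.09 in control, 6.85 and 6.73 in miR-26a and 7.40 and 7.15 in sponge cells. It fell by 0.42 against control (adjusted p = 0.0267) and by 0.49 against sponge (adjusted p = 0.0140), and its miR-26a arrays were the lowest. Against sponge, 2 were lower and 2 higher, among them Ogt, the glycosyltransferase that binds TET proteins, at -0.47 (adjusted p = 0.0185) and Gadd45b at 0.55 (adjusted p = 0.0107). Between sponge and control Gadd45b differed by -0.38 (adjusted p = 0.220) and Ogt by 0.28 (adjusted p = 0.236). The other tested Ogt probe was not called between miR-26a and sponge.

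For the supply of methyl groups, 1 of 15 genes was lower and 2 were higher with miR-26a than in control, with a median of 0.13. Mtap, of the methionine salvage pathway, rose by 0.58 (adjusted p = 0.0195), and Mthfd1, of folate metabolism in the cytosol, by 0.50 (adjusted p = 0.0149). Its mitochondrial relative Mthfd2 fell by 0.40 (adjusted p = 0.0257). Against sponge 1 was lower and 5 were higher, with a median of 0.15. The higher ones were Mtap at 0.60, Mtr at 0.48, Mthfd1 at 0.44, Tyms at 0.36 and Shmt1 at 0.31. The other tested Shmt1 probe was not called against sponge. Between sponge and control Mthfd2 differed by -0.15 (adjusted p = 0.353). Of the cytosine deaminases 2 of 4 were tested and 0 called, with Apobec1 at -0.38 (adjusted p = 0.0767) and Apobec3 at -0.15 (adjusted p = 0.349) between miR-26a and control. Against sponge they were at -0.31 and 0.11, and between sponge and control at -0.07 and -0.25. With miR-26a, Apobec1 was called in 1 of the 13 alternatives against control and in 1 of the 13 against sponge.

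**Figure D4:**
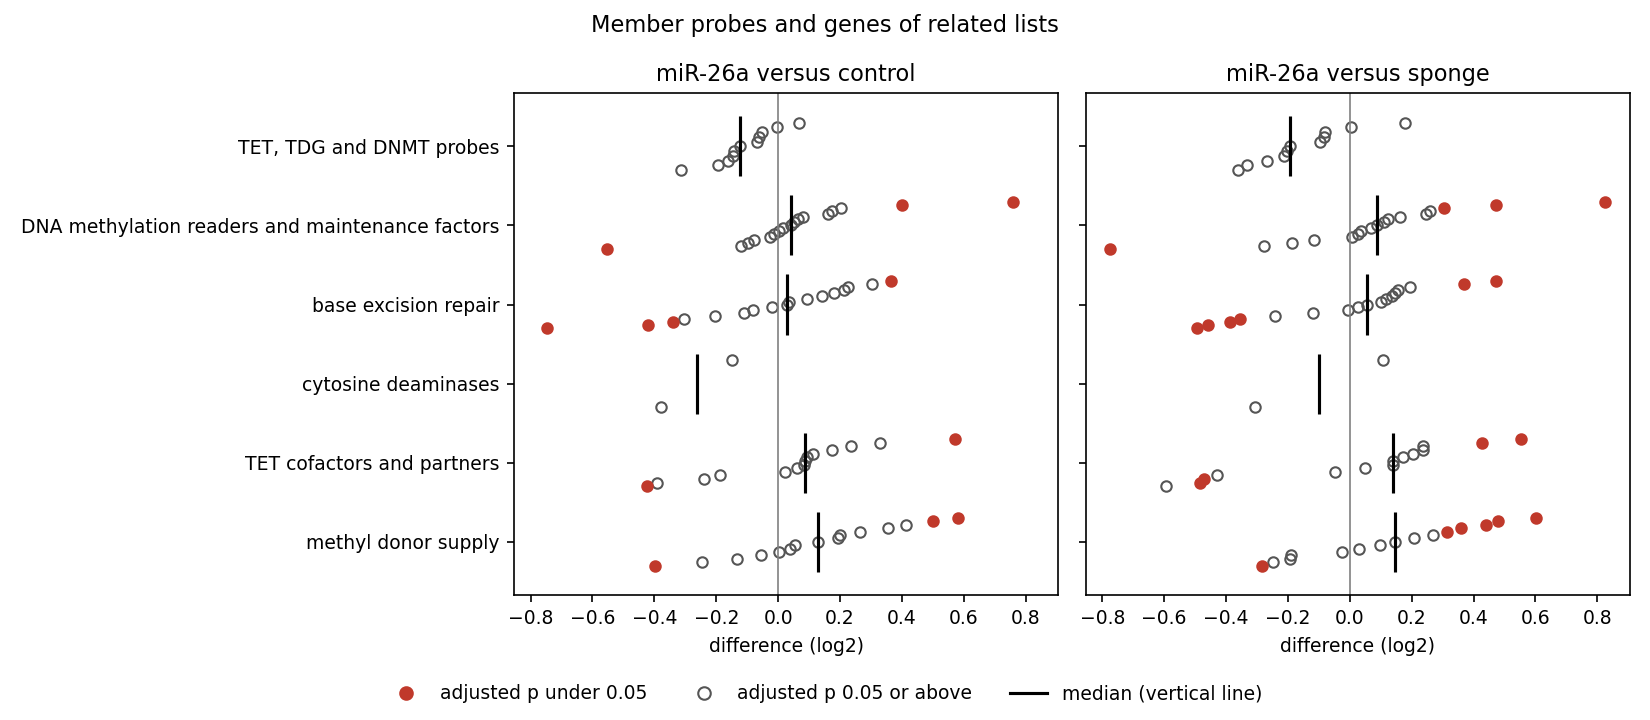
Log2 differences (horizontal axis) of the 11 member probes and of the tested genes of 5 lists, between miR-26a and control (left) and miR-26a and sponge (right). Filled points have an adjusted p under 0.05 and vertical lines are medians. The member medians, -0.12 and -0.19, lie below 0 with no filled point.

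Of the 11 tested member probes, those that varied most over the 6 arrays were Tdg at position 2972 (SD 0.211) and Tet2 at position 8857 (SD 0.20). Among other genes, the probes most like Tdg in their log2 values after centring were those of Dcaf13, Ippk and Utp14a, with root mean square differences of 0.0305, 0.0332 and 0.0350 over the 6 arrays, beside a median of 0.227 over all named probes. Those most like Tet2 were Dnase1l2, Ifrd1 and Tctex1d2, at 0.0422, 0.0514 and 0.0532, beside a median of 0.222.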

How the data were processed

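RNA was labelled with Cy3 and hybridized to Agilent mouse arrays. The authors deposited the scanner output, which gives the intensity of each spot after subtraction of background (processed signal), and a value table, which was found to hold quantile-normalized intensity on a linear scale and was used here as an alternative. Feature Extraction is version 10.7.3.1 in the file headers and 10.7.1.1 in the submitters' processing notes. Control spots and spots with outlier flags were left out, except where all spots of a probe were flagged (0 to 7 probes per array). Quantile normalization was applied to the processed signals, log2 was taken, and spots of the same probe were averaged. limma 3.58.1 in R 4.3.3 was fitted to all 6 arrays (lmFit, eBayes, two-sided) with the replicate number as a block, since the study's own normalization was against the control of the same experiment, with Benjamini-Hochberg adjustment over the 20168 probes. Deviations from the group mean were correlated across probes between arrays of the same number, at 0.379 (control and miR-26a), 0.588 (control and sponge) and 0.454 (miR-26a and sponge). The replicate number also went with the row on the slide, so these values cannot tell pairing by experiment from place on the slide. The wording of the methods on the number of arrays in the filter is unclear, and 4 was used. All arrays were on 1 slide and from 1 scan. Gene names, transcript positions and mm9 coordinates were taken from the annotation in the scanner output. The fit was also run on simulated data with independent normal noise and an additive replicate effect. Such data meet the assumptions of the model, so that run cannot show whether the real arrays do.

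The members and gene lists were chosen with earlier results of these data known. Named from each list were genes called in a comparison, at most 6 by size of log2 difference, and, where fewer than 2 were called, the 2 largest differences. Uhrf1 and the marker Dntt were named besides these after their values were seen. The differences given for the markers Csf1r, Cd4 and Cd3e, and the calls of dimmer Itgam and Pax5 probes, also lie outside this rule. Some genes that the rule or the lists cover are not reported here. For likeness the 2 tested member probes of largest SD were used, with 3 probes each. Alternatives were the fit without the block, scaling to the 75th percentile, normexp with an offset of 50, the authors' values, no filter, a filter on all 6 arrays, array weights and leaving out each array. Tables were assembled with pandas 2.3.3 and numpy 2.4.6 and plots drawn with matplotlib 3.10.9.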

Additional observations from a re-analysis of the deposited data

How the results depend on the processing

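The 33 differences of member probes were recomputed under 13 alternatives. Of 429 values, 402 kept their direction and 3 passed the threshold, all of Dnmt3a. The 27 values of opposite direction belonged to differences of at most 0.0964 in size. With scaling to the 75th percentile, Dnmt3b at position 2950 was at 0.021 between miR-26a and control and 0.015 between sponge and control. With normexp it was at 0.0092 between miR-26a and control, and between sponge and control Tet2 at 9011 was at -0.032, Tdg at 1178 at -0.025 and Dnmt3a at -0.0051. Leaving out single arrays gave, between miR-26a and control, ranges of -0.16 to 0.019 for Tdg at 1178, -0.18 to 0.057 for Tdg at 2972, -0.076 to 0.067 for Dnmt3b at 2950 and -0.20 to 0.096 for Dnmt3b at 4255. Between sponge and control the ranges were -0.059 to 0.078 for Tet2 at 9011, -0.21 to 0.10 for Tet3, -0.11 to 0.13 for Tdg at 1178, -0.067 to 0.10 for Dnmt3a and -0.095 to 0.077 for Dnmt3b at 2950. Between miR-26a and sponge they were -0.25 to 0.058 for Tet3, -0.20 to 0.039 for Tdg at 1178 and -0.082 to 0.090 for Dnmt3b at 2950. Of 598 values of list genes, 595 kept their direction. Apobec1 between sponge and control was at 0.0060 with scaling to the 75th percentile and ranged from -0.22 to 0.081 without single arrays, and Apobec3 between miR-26a and sponge from -0.0094 to 0.22.

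The number of all calls was 1960 between miR-26a and control, 2 between sponge and control and 3382 between miR-26a and sponge. With all 55681 probes in the fit it was 0 in each. Without the replicate block it was 312 between miR-26a and control, 238 lower and 74 higher, where the block gave 1033 and 927. Between miR-26a and sponge it was 990 without the block, 632 lower and 358 higher, where the block gave 1725 and 1657. Between sponge and control it was 12 (5 lower and 7 higher) with scaling to the 75th percentile, 35 (25 lower and 10 higher) with normexp and 6 with the filter on all 6 arrays, against 0 lower and 2 higher. Leaving out single arrays gave 220 to 1559 between miR-26a and control, 0 to 33 between sponge and control and 350 to 2359 between miR-26a and sponge. Member calls, otherwise 0, were 1 between miR-26a and sponge with normexp, and 0 to 1 without single arrays between miR-26a and control and between miR-26a and sponge. A group left with 1 array is assumed to vary like the other groups. The cause of these changes was not tested. The 6 member probes that were not tested had a processed signal of at most 50 on every array, and 4 of them were well above background on all 6.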
